A study of Drosophila melanogaster with 6 samples.

Results

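The somatic piRNA pathway genes described here are 10 genes: piwi, armi, fs(1)Yb, vret, zuc, shu, Hsp83, mael, egg and wde. They were chosen by symbol, with earlier results of these data known. The reads of every exon, mRNA and intron feature that carries such a symbol, and no other gene's, were summed per gene. This gave 10 members among 13372 genes with exonic or intronic reads. Reads of the exon and mRNA classes are called exonic below and reads of the intron class intronic. How the mRNA class differs from the exon class is not given in the sources used here. All values are reads of each gene's own transcripts in an Asterix pull-down, not measurements of the proteins.

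The 6 libraries are eCLIP libraries, in which RNA that copurifies with a protein is sequenced. The protein was Asterix (Gtsf1, gene arx), tagged at its C-terminus with GFP-FRT-Precission-V5-3xFLAG-P2A and expressed from the endogenous promoter in cultured OSS cells, a line of ovarian somatic sheath cells. The 4 groups were input from UV-crosslinked cells (2 libraries), anti-FLAG IP from crosslinked cells (2 libraries), input from cells that were not crosslinked (1 library) and IP from cells that were not crosslinked (1 library). They are called UV input, UV IP, no-UV input and no-UV IP below. Every library carries the tag, and no library from untagged cells was analysed here. The labels do not say whether the numbered libraries came from separate cultures, so the p-values measure only the spread between these libraries.

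Piwi-interacting RNAs (piRNAs) are small RNAs that guide Argonaute proteins of the Piwi clade to transposon transcripts. In the somatic cells of the fly ovary, single-stranded precursors are cut and loaded onto Piwi in the cytoplasm, and the loaded Piwi enters the nucleus and directs transcriptional silencing. Asterix is a zinc finger protein that binds Piwi and is needed for that nuclear step.

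Library size ranged from 2619716 to 15992638 reads, and rRNA took 73.2% to 85.8% of the annotated reads. Levels below are RPM, each read count scaled to the annotated reads of its library, where 3 reads correspond to 0.191 to 1.31 RPM, depending on the library. The arx transcript itself had 3 and 5 exonic reads in the UV inputs and 9 and 4 in the UV IPs, too few for a test. Exonic reads of 10 somatic gonad markers, with piwi and fs(1)Yb among them, summed to between 199 and 685 RPM per library. The highest sum was that of the no-UV input, where piwi alone gave 424 RPM. Not all of these markers were high: Wnt4 was under 1 RPM in every library, and Fas3 lay between 1.31 and 2.98 RPM. Of 10 germline markers, vas, nos, bam, aub and osk were each under 1 RPM in every library. The list's sum of 5.08 to 19.7 RPM came mostly from bru1, at 3.07 to 15.8 RPM.

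Across the 10 genes, exonic reads were lower in the UV IP than in the UV input for 6 of the 9 that could be tested, and higher for none. The 6 were piwi, armi, fs(1)Yb, mael, egg and wde, and their levels were 1.37-fold to 1.99-fold lower. Some of these calls were lost without 1 of the UV libraries or with DESeq2, as given beside each gene. Under DESeq2 the count was 2, and 605 of all exonic items were lower, against 1411 in edgeR. Of all 5882 genes with a testable exonic level, 24.0% were lower and 6.44% higher by the same rule, which was a Benjamini-Hochberg adjusted p under 0.05 in edgeR's quasi-likelihood test over all items. The median log2 ratio of the 9 genes was -0.61, against -0.21 over all exonic items. Introns moved the other way. Intronic reads of piwi and Hsp83, the members with enough of them to test, were 6.44-fold and 5.08-fold higher in the UV IP.

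**Figure D1:**
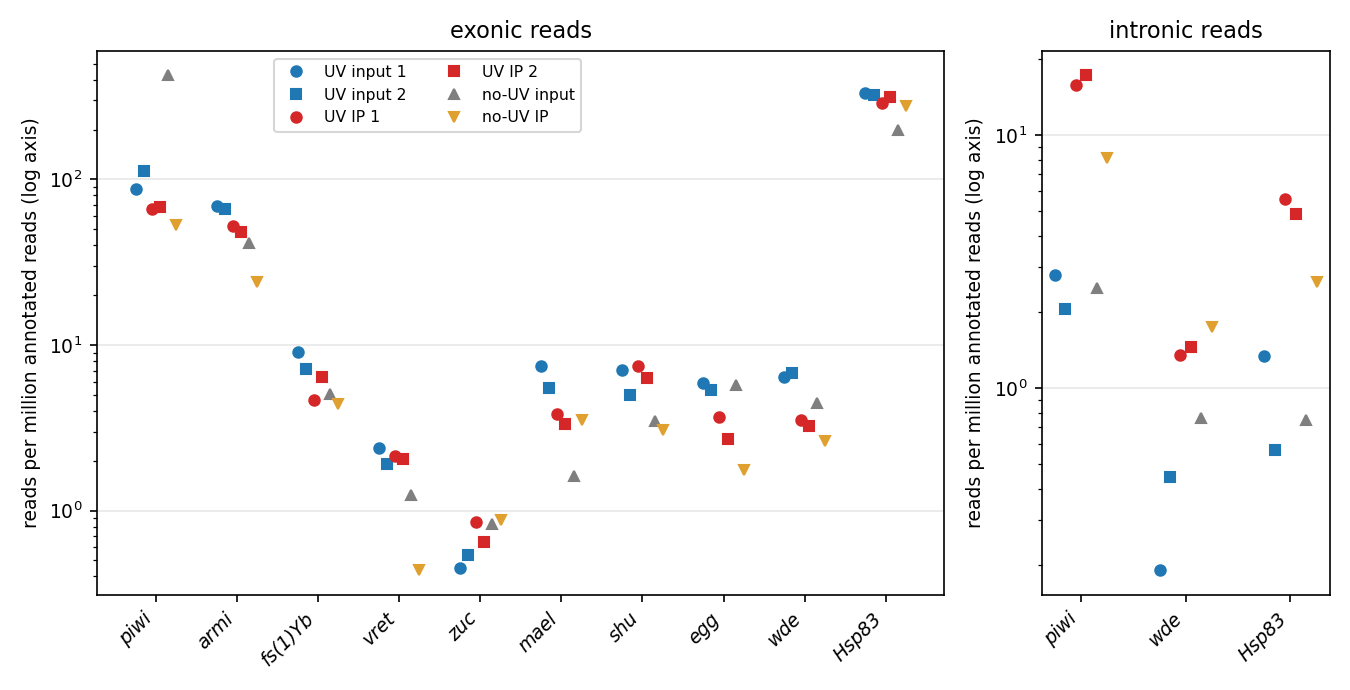
RPM (log axis) of each gene in each of the 6 libraries, for exonic reads (left, all 10 genes) and for intronic reads (right, the 3 genes with at least 3 intronic reads in every library). Each point is 1 library. Exonic levels of piwi were 424 RPM in the no-UV input and 52.8 to 112 RPM elsewhere, and intronic levels of piwi, wde and Hsp83 were higher in all 3 IPs than in all 3 inputs.

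The effector gene, piwi, encodes the nuclear Argonaute that carries the piRNA. RefSeq places it at 2L:10982205-10987420 on the Release 6 assembly, where its span touches that of SCAR. Its exonic level was 87.6 and 112 RPM in the UV inputs and 65.8 and 68.5 RPM in the UV IPs. Without crosslinking it was 424 RPM in the input and 52.8 RPM in the IP. The UV groups did not overlap, and the no-UV input stood far above the other 5 libraries. The log2 ratio of UV IP over UV input was -0.61 ± 0.16 (SE; adjusted p in edgeR = 0.00538). The call was lost without UV IP replicate 1 (adjusted p in edgeR = 0.101) and without UV IP replicate 2 (adjusted p in edgeR = 0.0656), with log2 ratios of -0.61 and -0.65.

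Most exonic piwi reads lay in a pair of segments that the files name for the isoforms piwi-RA and piwi-RB. The pair held 95.9% of exonic piwi reads in the no-UV input, 59.5% and 73.1% in the UV inputs, 51.7% and 58.7% in the UV IPs and 75.1% in the no-UV IP. The members of the pair carry nearly equal values in every library, so their split between the isoforms is uncertain. At the pair, the no-UV input reached 407 RPM and the UV inputs 67.0 ± 21.2 RPM (SD, n = 2), a 6.07-fold gap. The gap did not extend to the remaining piwi exons, which are described next, and its cause was not tested.

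Away from that pair, piwi exons were not high in the no-UV input. Their summed level was 17.3 RPM in the no-UV input and 32.8 ± 3.7 RPM (SD, n = 2) in the UV inputs. The no-UV input was thus high at the pair and low over the remaining exons. A level at least 4-fold above the mean UV input, after adding 0.5 RPM to each, was found in the no-UV input for 0.986% of all exonic items and 0.465% of exon segments. The exonic level of SCAR, which overlaps piwi, was 4.27 RPM in the no-UV input, on 17.2 reads, and 5.34 RPM on average in the UV inputs. Reads of overlapping genes cannot be told apart without the strand rule, so these values do not bear on the cause of the gap, which was not tested. Leaving out the pair took the UV log2 ratio of piwi exons to -0.16 ± 0.14 (SE; adjusted p in edgeR = 0.370), so the call for the whole gene rested on the pair.

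Among the single piwi segments, all 9 exon segments could be tested and 3 were lower, including both near-equal members of the pair. The lowest ratio was that of segment piwi-RB of the pair, at -0.87 ± 0.23 (SE; adjusted p in edgeR = 0.0125), and the one lower segment outside the pair was piwi-RA,piwi-RB-6, at -0.58 ± 0.17 (SE; adjusted p in edgeR = 0.0201). The highest of the exon class was segment piwi-RA,piwi-RB-7, with 1.28 and 0.892 RPM in the UV inputs and 2.13 and 1.42 RPM in the UV IPs, which did not pass the test (adjusted p in edgeR = 0.112). Over all 10 genes, 8 of 30 tested exon segments were lower and none higher, where 27.2% of all exon segments were lower and 5.99% higher. The lower ones include the piwi pair, whose members are not independent. None of 7 tested segments of the mRNA class was called, where 17.4% of that class were higher and 5.12% lower. In that class the isoform segments of piwi, those of Hsp83, and armi-RB with armi-RD hold equal values, so each such pair is a single measurement.

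The genes whose exonic profile over the 6 libraries was nearest to that of piwi, out of 1997 compared, were Top1, Mrp4 and Ptpmeg2. The measure was the Euclidean distance between log2 CPM profiles centred on their means, which was 0.308, 0.567 and 0.678 for these genes, against a median of 2.53. Each of them was highest in the no-UV input as well, which follows from choosing genes by likeness to the piwi profile. Top1, for example, had 107 RPM there and 26.0 and 33.9 RPM in the UV inputs.

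**Figure D2:**
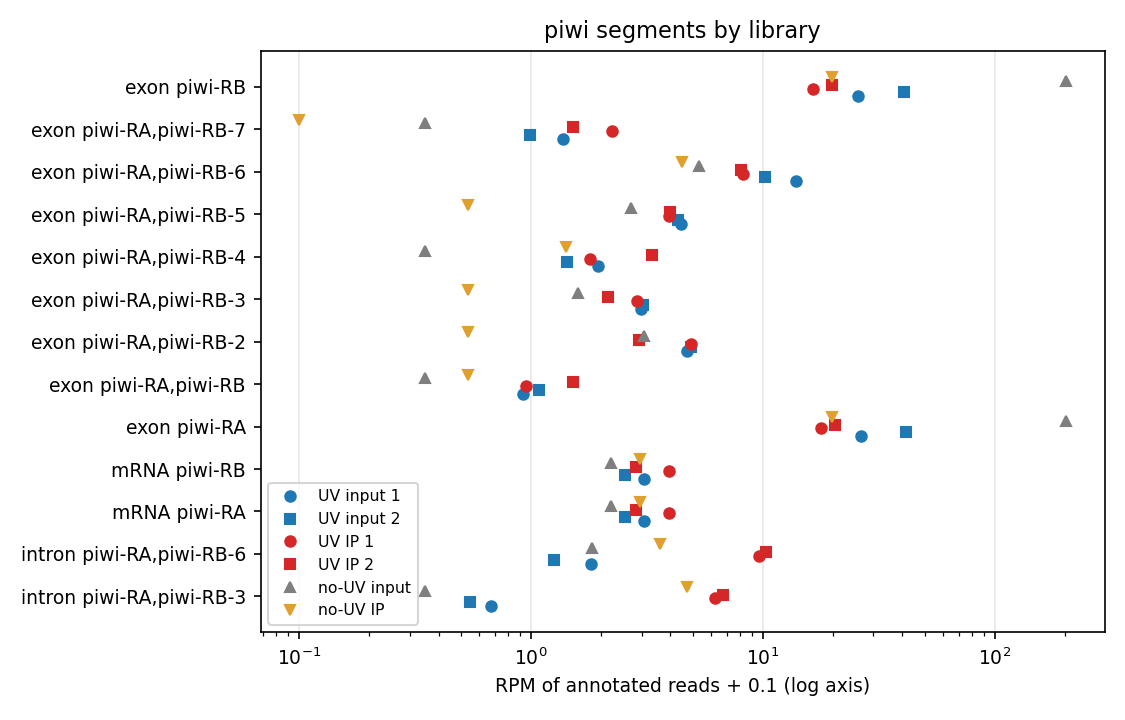
RPM plus 0.1 (log axis) of every tested piwi segment in each of the 6 libraries, named as in the deposited files. Each point is 1 library. The segments piwi-RA and piwi-RB of the exon class reach about 204 RPM each in the no-UV input, and both intron segments are higher in the 2 UV IPs than in the inputs.

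Introns of piwi carried few reads in the inputs and many in the IPs. The counts were 44 and 23 reads in the UV inputs, 148.5 and 133.8 in the UV IPs, 10 in the no-UV input and 18.5 in the no-UV IP. In RPM these were 2.81 and 2.05, then 15.8 and 17.2, then 2.49 and 8.10. Every IP lay above every input, and the UV groups were far apart. The log2 ratio was 2.69 ± 0.18 (SE; adjusted p in edgeR = 6.40e-09), the 34th highest of 1897 intronic items. Of all intronic items, 55.8% were higher and 2.37% lower, so a higher intronic level was common, and the median log2 ratio over all of them was 0.68. The SCAR gene had between 0 and 17 intronic reads per library.

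Nearly all of the intronic piwi reads in the IPs fell in 2 of 6 intron segments, which together held 99.3% and 97.8% of them in the UV IPs and 81.8% and 78.3% in the UV inputs. The segment piwi-RA,piwi-RB-3 had 9 and 5 reads in the UV inputs and 57.5 and 51.8 in the UV IPs, against 1 and 10.5 in the no-UV input and IP. Its log2 ratio was 3.60 ± 0.24 (SE; adjusted p in edgeR = 2.86e-06), a 12.2-fold difference. The segment piwi-RA,piwi-RB-6 had 27 and 13 reads in the UV inputs and 90 and 79 in the UV IPs, against 7 and 8 without crosslinking. Its log2 ratio was 2.73 ± 0.19 (SE; adjusted p in edgeR = 5.02e-06), a 6.64-fold difference. Of the member intron segments, 4 could be tested, among them an identical pair of Hsp83 that counts as 1 measurement, and all were higher, beside 49.3% of all intron segments. The first piwi segment and the Hsp83 pair reached the count minimum only through the IPs, so neither this count nor their own tests are support for a higher level. The authors' deposited table lists enrichment ratios of 11.4 and 8.43 for these piwi intron segments, beside a median of 2.06 over its 9461 intron rows, and its formula is not stated.

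Intronic reads made up 3.11% and 1.80% of all piwi reads in the UV inputs and 19.3% and 20.1% in the UV IPs. Without crosslinking the shares were 0.582% in the input, with a 95% Wilson interval of 0.317% to 1.07%, and 12.9% in the IP, with an interval of 8.35% to 19.5%. The share was thus higher in the IP with and without crosslinking, by more than the counting error. The low share in the no-UV input goes with the many exonic reads at the isoform pair there. Over all genes the intronic share was 36.7% ± 0.30 in the UV inputs and 49.4% ± 2.1 in the UV IPs (SD, n = 2 each).

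**Figure D3:**
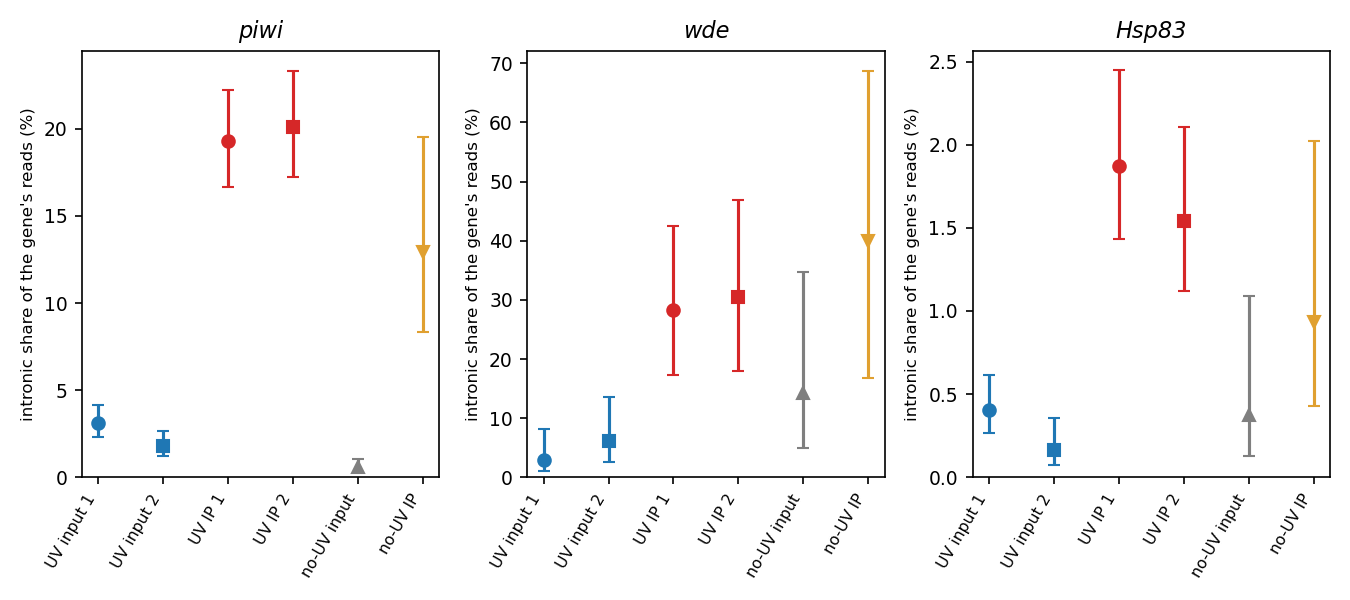
Intronic reads as a percentage of all reads of piwi, wde and Hsp83 in each of the 6 libraries, with vertical axes that differ between genes. Bars are 95% Wilson intervals, which cover counting error only. For piwi the UV IPs lie at 19.3% and 20.1% and the UV inputs at 3.11% and 1.80%.

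The intronic and exonic ratios of a gene were compared directly in 1581 genes with enough reads of both kinds, with edgeR's diffSpliceDGE. The intronic log2 ratio of piwi exceeded its exonic one by 3.30 (adjusted p in edgeR = 1.09e-26), the 17th largest difference. For Hsp83 the difference was 2.50 (adjusted p in edgeR = 1.00e-11), the 63rd largest. With 1 library left out it ranged from 2.09 to 3.37, the latter without UV input replicate 1. The intronic ratio was above the exonic one in 47.9% of these genes and below it in 0.696%, with a median difference of 0.97. Without the isoform pair the difference of piwi was 2.85, and without its largest exon segment that of Hsp83 was 2.23, and both passed the test.

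**Figure D4:**
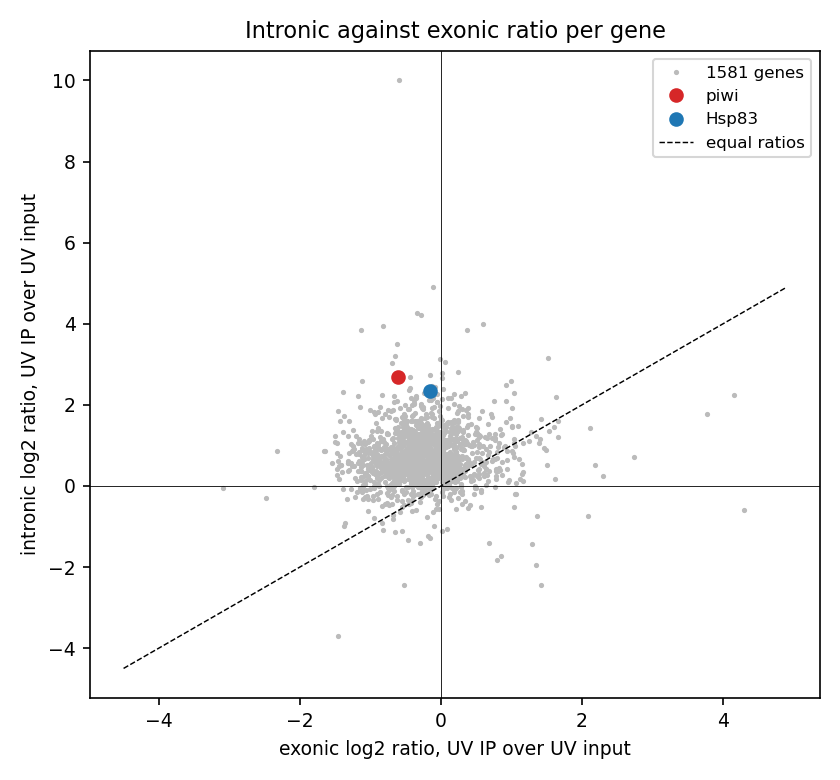
Intronic log2 ratio against exonic log2 ratio (UV IP over UV input) for the 1581 genes with both, each point 1 gene and the dashed line marking equal ratios. Both piwi (-0.61 exonic, 2.69 intronic) and Hsp83 (-0.16 exonic, 2.34 intronic) lie above the line, at the upper edge of the main cloud.

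Of the genes of piRNA biogenesis, armi (3L:3461317-3466314) encodes an RNA helicase that binds piRNA precursors. The armi exonic level was 68.8 and 65.9 RPM in the UV inputs and 52.1 and 48.4 RPM in the UV IPs, against 41.4 RPM in the no-UV input and 24.1 RPM in the no-UV IP. The UV groups did not overlap, and the IP was lower than the input with and without crosslinking. For armi the log2 ratio was -0.46 ± 0.14 (SE; adjusted p in edgeR = 0.0132). The call was lost without UV IP replicate 1 (adjusted p in edgeR = 0.0702), without replicate 2 (adjusted p in edgeR = 0.131) and with DESeq2 (adjusted p = 0.0752), with log2 ratios of -0.54, -0.41 and -0.47. Of 8 tested armi exon segments 2 were lower, with the lowest ratio at armi-RB,armi-RC,armi-RD-5, -0.87 ± 0.17 (SE; adjusted p in edgeR = 0.00255). The highest was that of the mRNA-class segments armi-RB and armi-RD, at 0.28 ± 0.29 (SE; adjusted p in edgeR = 0.540). Intronic reads of armi numbered 0 to 9 per library.

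The gene fs(1)Yb (X:2720468-2724158) encodes Yb, a Tudor domain protein around which the cytoplasmic Yb bodies of these somatic cells form. Exonic fs(1)Yb stood at 9.08 and 7.14 RPM in the UV inputs, 4.63 and 6.44 RPM in the UV IPs, 5.03 RPM in the no-UV input and 4.38 RPM in the no-UV IP. Both UV IPs lay below both UV inputs, though the second IP came close. The log2 ratio was -0.61 ± 0.19 (SE; adjusted p in edgeR = 0.0162). The call was lost without UV input replicate 1 (adjusted p in edgeR = 0.168), without UV IP replicate 1 (adjusted p in edgeR = 0.240), without its largest exon segment (adjusted p in edgeR = 0.365) and with DESeq2 (adjusted p = 0.220). The log2 ratios in these fits were -0.45, -0.41, -0.37 and -0.60. That segment, fs(1)Yb-RA-2, had a log2 ratio of -0.74 ± 0.19 (SE; adjusted p in edgeR = 0.0114), and the other tested segment, fs(1)Yb-RA-4, one of -0.53 ± 0.34 (SE; adjusted p in edgeR = 0.347). No intronic reads of this gene were listed.

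The gene vret (3R:22742954-22745581) encodes another Tudor domain protein of the Yb body. It had 37.5 and 21.5 exonic reads in the UV inputs, 20.1 and 16.0 in the UV IPs and 5.0 and 1.0 in the no-UV input and IP. In RPM the UV inputs were at 2.39 and 1.92 and the UV IPs at 2.14 and 2.06, so the groups overlapped. The log2 ratio of -0.12 had a 95% interval of -0.72 to 0.48 (adjusted p in edgeR = 0.773). The interval spans differences in both directions, so at this depth the data do not tell whether vret was lower, unchanged or higher.

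The gene zuc (2L:11988735-11989882) encodes the mitochondrial endonuclease that cuts piRNA precursors. It averaged 5.22 exonic reads over the 6 libraries, with 7.0 and 6.0 in the UV inputs, 8.0 and 5.0 in the UV IPs and 3.3 and 2.0 in the no-UV input and IP. This was under the minimum of 10 and too shallow to compare. Neither vret nor zuc had intronic reads listed.

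The products of the next pair of genes load Piwi with its small RNA: shu (2R:23841461-23843286) encodes a cochaperone of the immunophilin type, and Hsp83 (3L:3192969-3197059) encodes the Hsp90 chaperone with which it works. Exonic shu was at 7.02 and 5.01 RPM in the UV inputs, 7.45 and 6.31 RPM in the UV IPs and 3.48 and 3.07 RPM in the no-UV input and IP. The UV groups overlapped. The log2 ratio of 0.14 had a 95% interval of -0.27 to 0.55 (adjusted p in edgeR = 0.593), and its sign turned under another scaling, without reaching the threshold. Its segments shu-RA-2 and shu-RA, at 0.24 and 0.05 on the log2 scale, did not pass the test either. The 2 intronic shu reads were both in the no-UV IP.

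Hsp83 was well covered, with 636 to 5180.5 exonic reads per library. Exonic reads gave 330 and 325 RPM in the UV inputs and 290 and 313 RPM in the UV IPs, and 199 RPM in the no-UV input against 279 RPM in the no-UV IP. Both UV IPs were below both inputs by a small margin, while the no-UV pair ran the other way. The log2 ratio of -0.16 did not pass the test (adjusted p in edgeR = 0.440), with a 95% interval of -0.48 to 0.17.

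Hsp83 introns stood out from its exons. They had 21 and 6.4 reads in the UV inputs, 52.5 and 38.0 in the UV IPs and 3.0 and 6.0 in the no-UV input and IP. In RPM the UV inputs were at 1.34 and 0.571 and the UV IPs at 5.59 and 4.89. The groups did not overlap, although the inputs differed from each other more than the IPs did. For these introns the log2 ratio was 2.34 ± 0.31 (SE; adjusted p in edgeR = 2.02e-05), the 59th highest of 1897. With 1 library left out it ranged from 1.94 to 3.19, the latter without UV input replicate 1. The intronic segments named for Hsp83-RA and Hsp83-RB hold identical values and count as 1 measurement, at 2.42 ± 0.35 (SE; adjusted p in edgeR = 0.000499). Each had 10.5 and 3.2 reads in the UV inputs and 26.2 and 19 in the UV IPs. The count minimum was reached only through the IPs, so this segment test is no support for a higher level. The lowest segment ratio of the gene was that of the mRNA-class pair, at -0.21 ± 0.28 (SE; adjusted p in edgeR = 0.657). Most Hsp83 reads were exonic, and introns were 1.87% and 1.54% of its reads in the UV IPs and 0.404% and 0.164% in the UV inputs.

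The last genes act in nuclear silencing and in the chromatin it makes. The gene mael (3L:22721203-22726234) encodes Maelstrom, which acts with or downstream of Piwi in transcriptional silencing. Its exonic level was 7.43 and 5.53 RPM in the UV inputs and 3.83 and 3.35 RPM in the UV IPs, and 1.62 RPM in the no-UV input against 3.50 RPM in the no-UV IP. The UV IPs were lower without overlap, and the no-UV pair ran the other way on 6.5 and 8.0 reads. The log2 ratio was -0.90 ± 0.21 (SE; adjusted p in edgeR = 0.00310). The call was lost without UV input replicate 1 (adjusted p in edgeR = 0.0531) and with DESeq2 (adjusted p = 0.0754), with log2 ratios of -0.68 and -0.89. The lower of its 2 tested exon segments, the one shared by all 4 isoforms with no number, had a log2 ratio of -1.33 ± 0.37 (SE; adjusted p in edgeR = 0.0173), and the other one of -0.97 ± 0.36 (SE; adjusted p in edgeR = 0.0538). At most 3 intronic reads of mael were found in a library.

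The gene egg (2R:24775534-24779901) encodes Eggless (SetDB1), the methyltransferase that places H3K9 methylation at silenced targets. Exonic egg stood at 5.87 and 5.31 RPM in the UV inputs, 3.67 and 2.70 RPM in the UV IPs, 5.77 RPM in the no-UV input and 1.75 RPM in the no-UV IP. All 3 IPs were below all 3 inputs. For egg the log2 ratio was -0.85 ± 0.22 (SE; adjusted p in edgeR = 0.00516). The call was lost without UV IP replicate 2 (adjusted p in edgeR = 0.0677) and with DESeq2 (adjusted p = 0.109), with log2 ratios of -0.68 and -0.86. Neither of its tested segments, egg-RA-3 at -0.96 and egg-RA-8 at -0.78, passed alone.

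The gene wde (2R:10800420-10808938) encodes Windei, the cofactor of Eggless. Its exonic level was 6.44 and 6.78 RPM in the UV inputs, 3.51 and 3.25 RPM in the UV IPs, 4.43 RPM in the no-UV input and 2.63 RPM in the no-UV IP. Again all 3 IPs lay below all 3 inputs. The level was 1.99-fold lower in the UV IP (adjusted p in edgeR = 0.000809), and the 95% interval of the log2 ratio was -1.42 to -0.58, with the lowest estimate of the 9 tested members. The call rested on 1 segment, wde-RA,wde-RB-3, with 4.85 and 4.73 RPM in the UV inputs, 1.70 and 1.29 RPM in the UV IPs and a log2 ratio of -1.65 ± 0.22 (SE; adjusted p in edgeR = 0.000335). Segment wde-RA,wde-RB had -0.29 ± 0.36 (SE; adjusted p in edgeR = 0.645). Without the first of these segments the gene's log2 ratio was 0.03 (adjusted p in edgeR = 0.955).

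Intronic wde reads numbered 3.0 and 5.0 in the UV inputs, 12.7 and 11.2 in the UV IPs and 3.1 and 4.0 in the no-UV input and IP. The UV groups did not overlap, but the mean was too low for the test. The intronic share of wde reads was 2.88% and 6.17% in the UV inputs and 28.3% and 30.6% in the UV IPs, with 14.3% and 40.0% in the no-UV input and IP. The Wilson interval of the last value ran from 16.8% to 68.7%, since only 10 reads were counted. No intronic reads of egg were listed.

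Intronic reads were therefore found for 6 of the 10 genes, and only piwi and Hsp83 passed the count minimum. In both, the mean of the UV inputs alone was also above the minimum. Among exonic items, 7 of the 9 members tested had both UV IPs below both UV inputs, and the share over all items was 43.3%. Both UV IPs lay above both UV inputs for the introns of piwi and Hsp83, as for 77.5% of all intronic items. Leaving out the largest exonic segment of each gene (for piwi the isoform pair) reduced the lower members from 6 to 3, namely armi, mael and egg. Only the members were cut in this way, so there is no share over all genes to set beside this count. The cut also lowers depth, leaving wde with 25 and 23 reads in the UV inputs and 17 and 15 in the UV IPs.

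**Figure D5:**
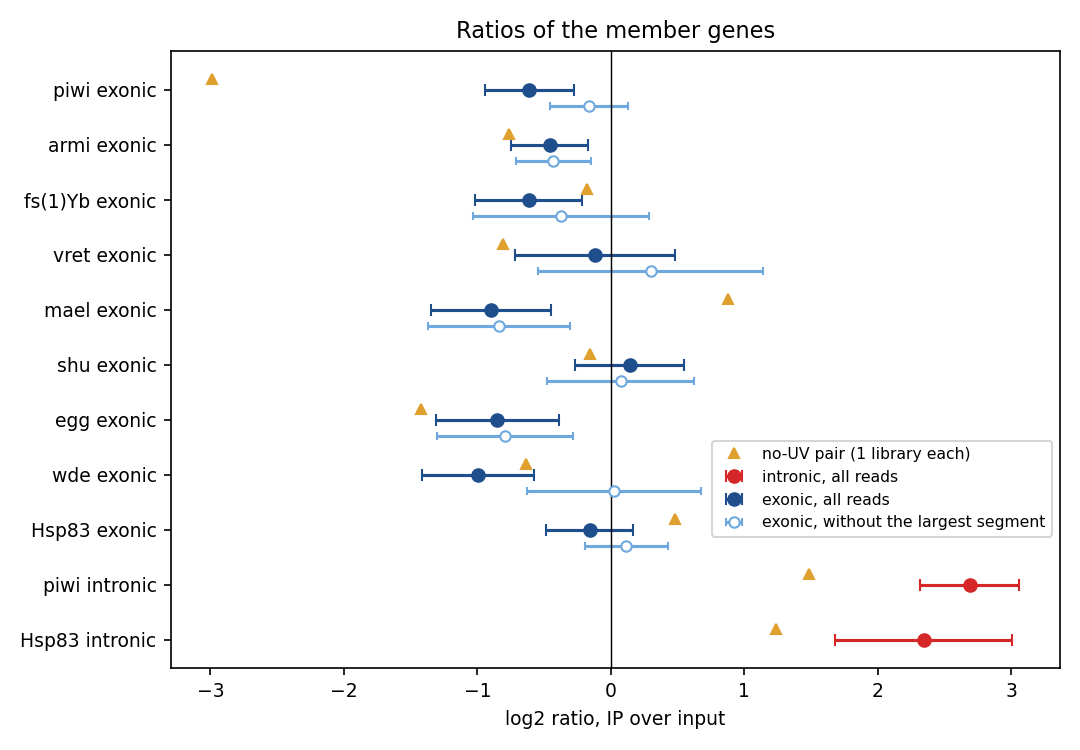
Log2 ratio of IP over input for the 9 testable exonic items and the 2 testable intronic items. Filled circles are edgeR ratios of the UV groups (n = 2 each) with 95% intervals, open circles the same without the gene's largest exonic segment, and triangles the ratio of the single no-UV pair, which has no test. For piwi and wde the open circles lie near 0, at -0.16 and 0.03.

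The no-UV pair has 1 library per arm, so it gives no test, and the intervals below are exact and cover counting error only. Of the 9 exonic members, 2 had a log2 ratio below -1, piwi and egg, and none was above 1. Over all exonic items 25.0% were below -1 and 5.56% above 1. The IP-to-input ratio was 0.124 for piwi exons (95% interval 0.102 to 0.149), 0.307 for egg (0.0771 to 0.897) and 0.580 for armi (0.420 to 0.792). The low piwi value came mostly from the isoform pair, which was 10.3-fold lower in the no-UV IP. The remaining piwi exons were at 17.3 RPM in the no-UV input and 13.1 RPM in the no-UV IP, a 1.31-fold difference. For Hsp83 exons the ratio was 1.40 (1.26 to 1.55), the only exonic interval above 1. The ratio was 3.17 for piwi introns (1.39 to 7.69) and 3.53 for Hsp83 introns (0.753 to 21.8). Both intronic log2 ratios exceeded 1, as did 5.96% of intronic items, while 38.7% were below -1. The higher intronic level of piwi in the IP was thus present without crosslinking, and that of Hsp83 was within counting error there.

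Other genes of the pathway and its neighbours were counted in 7 lists. Among nuclear silencing partners, 4 of 9 exonic items were lower and none higher, the lowest being sov, a zinc finger protein gene needed for heterochromatin, the H3K4 demethylase gene Su(var)3-3 and the chromatin remodeller gene Mi-2, with log2 ratios of -1.46 to -0.78. Of 4 intronic items of this list 3 were higher, with sov at 1.86, lola at 1.34 and Mi-2 at 0.55. Of 12 exonic items for piRNA precursor export and biogenesis, 3 were lower, tho2, SoYb and Ref1, at -0.95, -0.90 and -0.51. SoYb, a relative of Yb, was therefore lower, as were 24.0% of all exonic items. The fs(1)Yb call had the same direction but was lost in the alternative fits named above. Of 4 intronic items in that list 3 were higher, Hen1, sbr and Ref1, at 1.16, 0.89 and 0.86. Exon junction complex genes were included because removal of a piwi intron is known to need that complex. Among these, 2 of 6 exonic items were lower, btz at -1.01 and Acn at -0.69, and none had intronic reads enough to test.

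Of 10 exonic items of germline piRNA genes, 5 were lower, with krimp, del and tud lowest at -1.01, -1.01 and -0.81, and 3 of 4 intronic items were higher, with tapas at 2.65. The tapas introns were at 0.255 and 0.446 RPM in the UV inputs and 1.78 and 2.70 RPM in the UV IPs. They reached the count minimum only through the IPs. Of 9 exonic items of other Argonaute and small RNA genes, 5 were lower, with drosha, Dcr-1 and Dcr-2 lowest at -1.04 to -0.93. Of their 3 intronic items gw was higher, at 1.49, and AGO2 lower, at -1.33. Introns of AGO2 were at 1.13 and 1.48 RPM in the UV inputs and 0.532 and 0.580 RPM in the UV IPs. They reached the count minimum only through the inputs. H3K9 methylation genes were lower in 4 of 6 exonic items, with Su(var)2-HP2, Su(var)3-9 and G9a at -1.36, -0.87 and -0.76. Heat shock chaperones, beside Hsp83, were lower in 5 of 11 exonic items, with Hsp70Aa, Hsc70-3 and Cdc37 lowest at -1.04, -0.77 and -0.65, and all 3 of their intronic items were higher. Hsp70Aa shares sequence with other Hsp70 copies, so its value is uncertain. Together the lists held 28 lower and no higher calls among 63 exonic items, beside the 24.0% and 6.44% over all exonic items. They held 13 higher calls and 1 lower call among 18 intronic items, beside the 55.8% and 2.37% over all intronic items. Introns of tapas and of the heat shock chaperone gene Droj2 reached the count minimum only through the UV IPs. Those of AGO2, the lower call, reached it only through the UV inputs. These calls are therefore no support for a difference. The markers of somatic gonad cells, which include piwi and fs(1)Yb, were lower in 8 of 9 exonic items, and of their 7 intronic items 4 were higher and 1 lower. Among these, Wnt4 introns reached the count minimum only through the UV IPs. Neither of the 2 testable exonic germline markers was called, and their 3 intronic items were higher.

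The balance of higher and lower calls depends on the scaling. Of the called exonic items 21.2% were higher in the UV IP, and 9.55% when libraries were scaled to reads other than rRNA, which moved the median exonic log2 ratio by -0.22. Relative to the median of all exonic items, the log2 ratios of piwi, armi, fs(1)Yb, mael, egg and wde lay 0.25 to 0.79 lower, those of vret and Hsp83 lay 0.09 and 0.05 higher and that of shu 0.35 higher. The same 6 members were lower, and none was higher, under that scaling.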

How the data were processed

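The authors deposited, per library, an estimated count and an RPM value for each annotated feature. The estimated counts are fractional, so reads were shared between features, but the counting rule, strand use and removal of PCR duplicates are not given in the sources used here. The authors' deposited table of enrichment ratios was used only for description. The submitters' processing notes name dm6, mm10, STAR 2.5.2b, bedtools 2.29.0 and bcl2fastq 2.19.

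Estimated counts were summed per gene, separately for exon plus mRNA features and for introns, and rounded. Unannotated reads, 1.98% to 12.9% per library, were left out of totals. Of these items and those of the other RNA classes, 8736 reached a mean of 10 counts in the 4 UV libraries and were tested with edgeR 4.0.16 (R 4.3.3, TMM scaling, quasi-likelihood), IP against input of UV-crosslinked cells, with p-values adjusted over all items by Benjamini-Hochberg. An exact permutation of 2 against 2 libraries cannot go below p = 0.333. Intronic against exonic ratios used diffSpliceDGE. No-UV log2 ratios used CPM with a prior count of 2. Alternatives used DESeq2 1.42.0 and limma 3.58.1, and figures matplotlib 3.10.9. On simulated 4-fold changes the gene test recovered 97.3% of 185 changed items among 8559 with 8 false calls, and the intron test 71.9% of 199 among 1552 with 2 false calls. The exonic calls of the members were smaller, at 1.37-fold to 1.99-fold, and the simulation does not measure power for changes of that size. Its counts were drawn from the kind of model that the test fits, so the false calls do not cover departures from that model.

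Replicates differed beyond read sampling (chi-square per degree of freedom 10.2 for inputs and 7.29 for IPs). Wilson intervals, the exact intervals of the no-UV pair and floors (3 counts) cover counting error only. The edgeR intervals of the UV log2 ratios also include the spread between libraries. All 10 members were named, with their highest and lowest tested segments, at most 3 genes per list and direction, and the 3 genes nearest to piwi. The members and lists were chosen with earlier results of these data known. Of the listed symbols, eIF4AIII and Hop did not match 1 symbol in the files. Coordinates are RefSeq's for Release 6 (dm6). Overlapping annotations were listed for 8 members (all but fs(1)Yb and wde), and reads of such genes cannot be told apart without the strand rule. No sequences are shown.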

Additional observations from a re-analysis of the deposited data

Results flagged for a closer look

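For mael exons the no-UV pair ran against the UV groups, with a log2 ratio of 0.88 against -0.90. The former rests on 6.5 and 8.0 reads and 1 library per arm, and the difference was not tested.

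For Hsp83 exons the no-UV pair had a log2 ratio of 0.48, against -0.16 in the UV groups, which was not called. This difference was not tested either.

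A piRNA cluster feature that the files name piwi.1, which belongs to none of the exon, mRNA or intron classes, averaged 2.99 RPM in the UV IPs and 0.752 RPM in the UV inputs. It had 11 and 9 reads in the UV inputs, 32 and 20 in the UV IPs, 1 in the no-UV input and 0 in the no-UV IP, where 3 reads would be 1.31 RPM. Its log2 ratio was 1.97 ± 0.34 (SE; adjusted p in edgeR = 0.00021). Where this feature lies relative to the piwi gene is not given in the sources used here.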

How the results depend on the processing

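The higher intronic levels of piwi and Hsp83, and the excess of their intronic over their exonic ratios, kept direction and call in every alternative in which they could be tested. Their intronic log2 ratios ranged from 2.36 to 2.92 and from 1.71 to 3.19. With a minimum of 50 counts 1 intronic member, piwi, was testable and higher. The 6 lower exonic members became 2 with DESeq2 (piwi and wde), 3 without each member's largest exonic segment (an alternative chosen after the data were seen), and 3 to 6 when 1 library was left out; wde kept its call in all of the latter. Signs turned for wde, which was past the threshold, and for 3 genes that were not: shu was at -0.071 with rRNA-free library sizes, -0.055 with no filter, and -0.038 and -0.017 without UV input replicate 2 or UV IP replicate 1, vret at 0.024 without UV input replicate 1, and without the largest segment vret was at 0.30, Hsp83 at 0.12 and wde, which lost its call, at 0.028. With 1 library left out, shu ranged from -0.038 to 0.40 and vret from -0.23 to 0.024. The cause was not tested.

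Over all genes, the counts moved further. Higher exonic items numbered 379, 218 with rRNA-free library sizes, 224 with the minimum of 50 counts, 153 with DESeq2, 781 with features as deposited and 183 to 359 with 1 library left out. Lower exonic items numbered 1411, 605 with DESeq2, 3069 as features and 766 to 1359. Higher intronic items numbered 1059, 628 with the minimum of 50, 553 with DESeq2, 1885 as features and 647 to 965. Lower intronic items numbered 45, 70 rRNA-free, 81 without a filter, 17 with the minimum of 50, 18 with DESeq2, 78 as features and 16 to 42. Genes with the intronic ratio above the exonic one numbered 758, and 504 to 699 with 1 library left out. Those below it numbered 11, 19 without a filter and 6 to 18. In the no-UV pair, 327 exonic items were above 1, and 530 with a prior count of 0.5.

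Libraries of the UV groups share numbers, but same-numbered libraries did not deviate together (correlation 0.048). With the number as a replicate block, 6 members were lower and 18 genes had the intronic ratio below the exonic one. Depth limits zuc, arx, vret and the introns of wde.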
